A study of Rattus norvegicus with 12 samples.

Results

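Circular DNA of rat back skin given 2 weekly fractions of 5 Gy was compared with that of untreated back skin. The comparison rests on 8 of the 12 libraries of the series, 4 labelled Con (called control here) and 4 labelled 5Gy x2, and 1 or more supporting reads made a circle count as present. By that rule, 102862 of the 228353 listed extrachromosomal circular DNAs (eccDNA) were present in at least 1 of the 8 libraries: 25632 in control skin, 79722 in 5 Gy x2 skin and 2492 in both. All animals were wild-type SD rats. Irradiated skin was sampled on day 7 after the last of the 2 fractions, and the labels give neither the sampling time of the control skin nor the age of the animals. The other 4 libraries, skin given 4 fractions (5 Gy x4), served only as a set in which circles of both groups could be looked up and as part of the fits across genes and windows. The labels do not tie the 4 libraries of a group to separate animals, so the p-values describe library-to-library spread only, some of which may be technical. Since the assay reads DNA, expression markers could not be used to check the skin label, and in bulk tissue more circles per cell and more cells that carry circles cannot be told apart.

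Extrachromosomal circles form when a linear fragment of the genome is cut out or copied and its ends are joined. DNA damage, its repair and the fragmentation of DNA in dying cells are known sources, and the lengths of small circles follow the spacing of DNA wound on nucleosomes. Ionizing radiation breaks both strands of DNA, and skin, with its dividing basal keratinocytes and hair follicles, is a tissue that reacts early to it. Circle-seq digests linear DNA and sequences what remains. A circle is then recognised by split reads, which run across the joined ends, and by discordant read pairs, whose mates point away from each other on the linear genome.

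The libraries differed widely in depth. Supporting reads (split reads plus discordant pairs, with no molecular identifiers) ran from 35525 in control replicate 1 to 197061 in control replicate 3, and from 52159 in 5 Gy x2 replicate 4 to 404815 in 5 Gy x2 replicate 1. Total sequenced reads are unknown here. Libraries also stood apart within their groups: 38.2% of the circles of 5 Gy x2 replicate 2 had 1 supporting read, against 7.35% to 14.9% in the other 5 Gy x2 libraries. Control replicate 4 had the fewest circles and the smallest share of circles of 330 to under 420 bp, and results that rest on either library are given with their values below.

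The number of circles per library overlapped between the groups. Control replicates 1 to 4 listed 4795, 9445, 10389 and 3601 eccDNA, and 5 Gy x2 replicates 1 to 4 listed 19006, 28757, 27443 and 6326. Of the irradiated libraries 3 lay above every control library, whereas replicate 4 lay inside the control range. The means were 7057.5 ± 3360 and 20383 ± 10319 (SD, n = 4 each), a 2.89-fold difference with a two-sided exact permutation p of 0.0857. The fold was 2.19 at an equal number of 34499 supporting reads per library (exact p = 0.0857), 1.83 per 1000 supporting reads (exact p = 0.371) and 1.84 over circles that the annotation labels hconf or conf (exact p = 0.257). Without 5 Gy x2 replicate 4 it was 3.55-fold (exact permutation p = 0.0286).

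The excess in number lay mostly in 1 length class, about as long as DNA wound on a pair of nucleosomes. Circles of 330 to under 420 bp numbered 1590, 3316, 4630 and 579 in control replicates 1 to 4, and 12952, 19739, 18816 and 3828 in 5 Gy x2 replicates 1 to 4. Only 5 Gy x2 replicate 4 fell within the control range, and the mean was 5.47-fold higher after irradiation (exact permutation p = 0.0571, adjusted p = 0.136 over 74 measures added after the data were seen). At the other lengths the folds were smaller and the groups overlapped: 1.56-fold for 150 to under 250 bp, 1.52-fold for 250 to under 330 bp, 1.75-fold for 420 to under 1000 bp and 1.12-fold for 1000 bp or more. Circles under 150 bp numbered 430, 746, 641 and 532 in control and 402, 593, 372 and 204 in 5 Gy x2 libraries, a mean 0.669-fold that of control (exact p = 0.143). No irradiated library held as many of these shortest circles as control replicate 2 or 3.

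**Figure D1:**
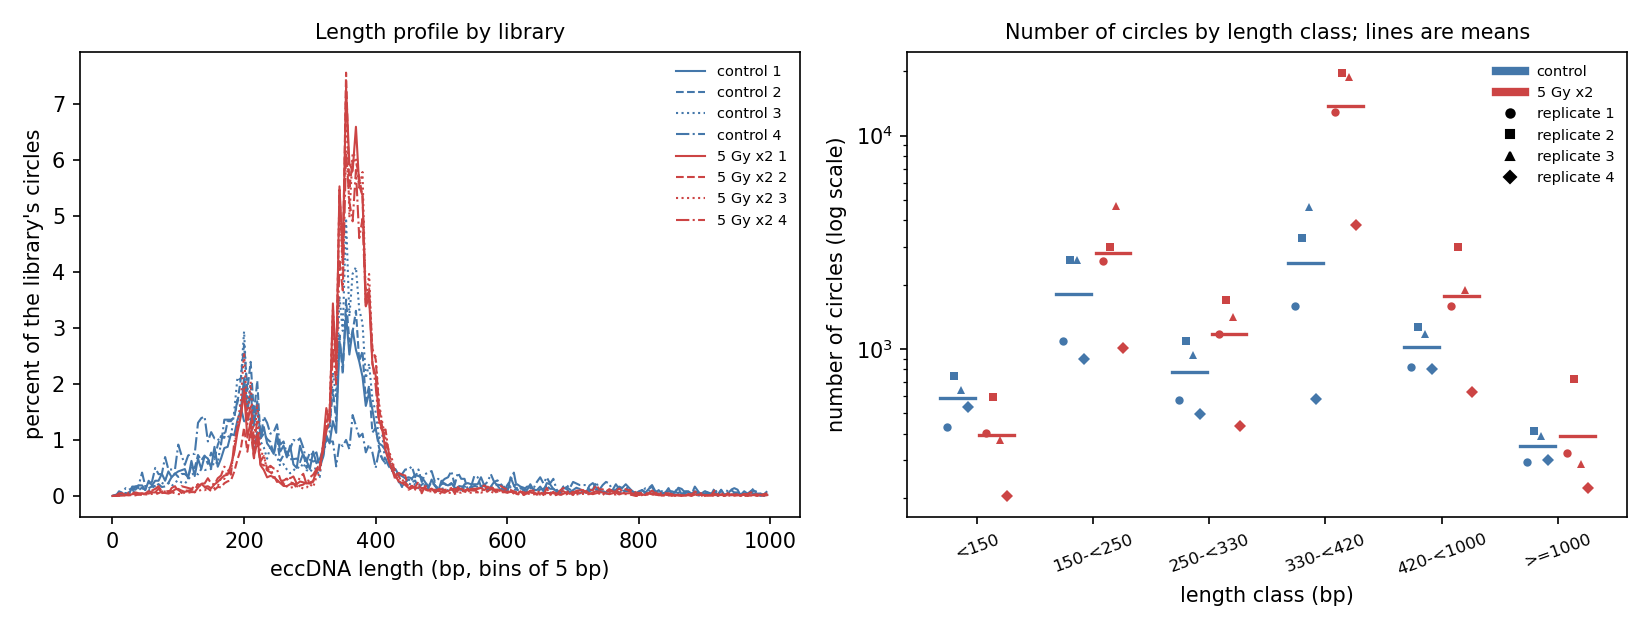
Left, percent of a library's circles (vertical axis) by length in bins of 5 bp (horizontal axis, bp) for the 4 control (blue) and 4 5 Gy x2 libraries (red), line style by replicate. Right, number of circles (log axis) in 6 length classes, 1 symbol per library with group means as lines. The irradiated profiles rise highest between 330 and 420 bp, and 5 Gy x2 replicate 4 (diamond) is the irradiated library with the fewest circles in that class, at 3828.

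As shares of each library's own circles, the 6 length classes separated the groups completely. The 330 to under 420 bp class held 33.2%, 35.1%, 44.6% and 16.1% of the circles of control replicates 1 to 4 and 68.1%, 68.6%, 68.6% and 60.5% of those of 5 Gy x2 replicates 1 to 4. All other classes were correspondingly smaller in every irradiated library: 9.45% ± 3.73 against 2.19% ± 0.772 under 150 bp, and 25.1% ± 2.06 against 14.3% ± 2.96 for 150 to under 250 bp (SD, n = 4). Classes above the peak differed the same way, 16.03% ± 4.80 against 8.89% ± 1.64 for 420 to under 1000 bp and 5.65% ± 2.07 against 2.20% ± 1.06 for 1000 bp or more. The exact p of each of these shares was 0.0286, the smallest that 4 libraries against 4 allow. Since shares of 1 library sum to a fixed total, they are not separate results. The most frequent length was alike in both groups: in the 330 to under 420 bp class it was 350 to 359 bp or 370 to 379 bp in all 8 libraries, and in the 150 to under 250 bp class 200 to 209 bp in 7 libraries and 190 to 199 bp in control replicate 4.

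Of the 12 planned measures per library, 5 had groups that did not overlap, a background of 41.7%, and of the 74 added measures 24, a background of 32.4%. Adjusted over its own family, such a planned measure had an adjusted p of 0.0686 and an added one 0.0881, so none passed 0.05. The 5 planned ones were the median length (337 bp ± 20.6 against 364 bp ± 2.22), the share of 330 to under 420 bp, the exonic and intronic shares, and the split-read share of supporting reads.

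Split reads made up more of the support of circles in every irradiated library. Their share of supporting reads was 49.4%, 61.2%, 64.4% and 56.8% in control replicates 1 to 4 and 81.7%, 78.2%, 86.2% and 72.2% in 5 Gy x2 replicates 1 to 4. The groups did not overlap, and the means differed by 21.6 percentage points (exact p = 0.0286, adjusted p = 0.0686). At a common mix of lengths the shares were 72.0% and 85.0%, with the same exact p. That version weights length bins by their numbers of circles instead of reads, so the part of length in the difference was not tested. Calls that rested on read pairs alone were 9.99%, 8.33%, 8.07% and 16.6% of the calls of control replicates 1 to 4 and 4.45%, 2.19%, 2.98% and 7.61% of those of 5 Gy x2 replicates 1 to 4. Conversely, calls that rested on split reads alone made up 76.2% ± 7.24 of control calls and 88.4% ± 3.27 of irradiated calls, again with no overlap (exact permutation p = 0.0286, n = 4, adjusted p = 0.0881).

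Among circles of 420 to under 1000 bp both read pairs and coverage differed between the groups. A read pair backed 53.3%, 58.9%, 59.2% and 62.9% of the calls of this length in control replicates 1 to 4, and 38.0%, 20.8%, 29.6% and 48.7% in 5 Gy x2 replicates 1 to 4. Every irradiated library was lower, by 24.3 percentage points between the means (exact p = 0.0286, adjusted p = 0.0881). Their median mean coverage, a depth value that the annotation tables give for each call, was 24.9, 47.4, 62.0 and 67.9 in control and 13.5, 2.84, 4.89 and 18.1 in irradiated libraries. That is 0.194-fold the control mean, with no overlap. Circles of 330 to under 420 bp also had fewer calls with a read pair, 16.3% ± 10.7 against 6.98% ± 1.74 (SD, n = 4), but control replicate 4 alone stood at 32.3% and the other 3 control libraries at 10.1% to 11.8%. In the classes under 150, 150 to under 250, 250 to under 330 and 1000 bp or more the groups overlapped in both measures.

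**Figure D2:**
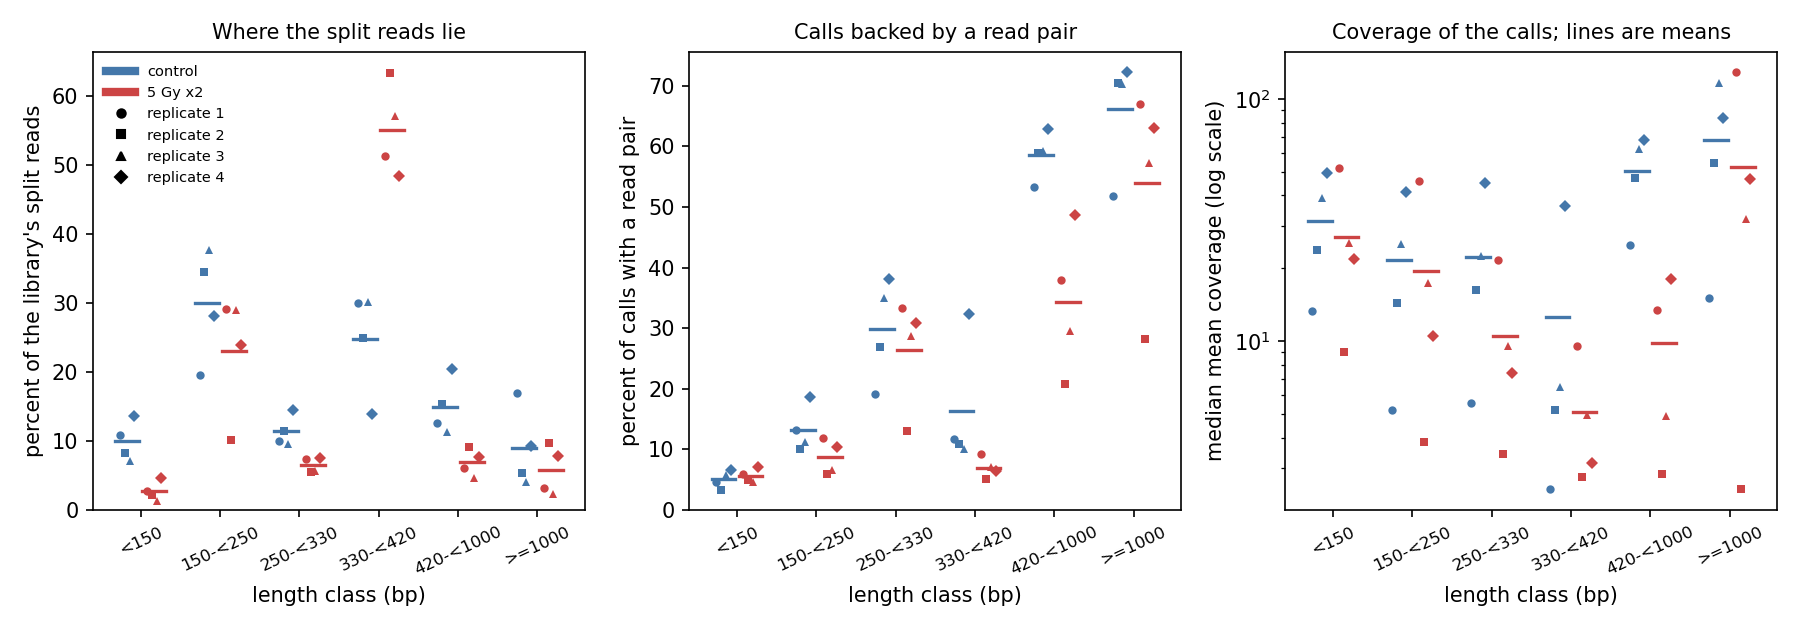
Evidence by length class (horizontal axes, bp) in control (blue) and 5 Gy x2 (red) libraries, 1 symbol per library and lines for group means: percent of the library's split reads, percent of calls with at least 1 read pair, and median mean coverage of the calls (log axis). At 420 to under 1000 bp the irradiated libraries lie below all control libraries in the middle and right panels, and at 330 to under 420 bp their calls hold 55.0% of split reads on average against 24.8%.

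The median coverage over all calls was 4.75, 12.6, 15.8 and 48.7 in control and 12.1, 2.92, 6.32 and 4.57 in irradiated libraries, with overlapping groups (exact permutation p = 0.114). Median circle scores, the caller's own value for a call, overlapped as well (197 ± 107 against 219 ± 158, SD, n = 4). Per split read the score was slightly higher in every irradiated library, 43.0 ± 0.812 against 38.8 ± 2.63. The tables also give a coverage continuity value, whose definition is not given in the sources used here. It was 0 in 46.5% ± 9.50 of control calls and in 19.6% ± 3.66 of 5 Gy x2 calls, with no overlap between the libraries (exact p = 0.0286, n = 4). The value moved with depth: its median was 0.356 over the 17961 calls with a mean coverage under 2 and 0 over the 23546 calls at 20 or more. Its part in the difference between groups was not tested. The confidence label moved with both, and lconf was the label of 32.9% ± 10.5 of control circles and 60.0% ± 8.97 of irradiated ones. Among entries with 1 call, continuity values reached at most 0.1997 for hconf and 0.1998 for conf, and ran from 0.129 to 0.985 for lconf. The label share is thus not a result separate from the continuity value.

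By gene annotation, exonic circles took a larger share and intronic circles a smaller share of irradiated libraries. The exonic share was 3.73%, 3.74%, 3.81% and 2.36% in control replicates 1 to 4 and 3.85%, 4.92%, 4.64% and 4.71% in 5 Gy x2 replicates 1 to 4. The groups did not overlap, though control replicate 3 and 5 Gy x2 replicate 1 nearly met. The intronic share was 34.1%, 33.4%, 32.6% and 35.1% against 31.0%, 32.3%, 32.0% and 32.5%. Both differences (1.12 and −1.88 percentage points, exact p = 0.0286, adjusted p = 0.0686) were smaller at a common mix of lengths, 0.799 and −1.20 points, and the exact p was then 0.114 for each. Without control replicate 4 the exonic difference was 0.771 points. The upstream share (within 2 kb before a gene) was 1.90% ± 0.205 against 1.67% ± 0.0779 (exact p = 0.0571, n = 4), and the downstream and intergenic shares overlapped (exact p = 0.743 and 0.229).

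Within length classes, the intronic share differed in opposite directions on either side of 1000 bp. Among circles of 420 to under 1000 bp it was 34.5% to 35.7% in control libraries and 30.6% to 33.2% in irradiated ones. Among circles of 1000 bp or more it was 23.5% to 25.4% in control and 26.0% to 28.8% in irradiated libraries. Neither class had overlapping groups (exact p = 0.0286, adjusted p = 0.0881 each), but with a minimum of 2 supporting reads the exact p was 0.0571 in both. In the 330 to under 420 bp class the exonic share was 3.95% ± 0.737 against 4.77% ± 0.356 (exact permutation p = 0.0857, n = 4), with overlapping groups.

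Among circles within 2 kb upstream of a gene, those of Cers3 and Gpam recurred in the most libraries, 6 and 5 of the 8. Cers3 encodes the ceramide synthase that makes very long ceramides of the epidermal barrier, and Gpam a glycerol phosphate acyltransferase of lipid synthesis. The Cers3 circle, of 421 bp at chr1:127646463-127646883 (rn6), had 17, 0, 24 and 24 supporting reads in control replicates 1 to 4 and 44, 15, 30 and 0 in 5 Gy x2 replicates 1 to 4. The Gpam circle, of 1648 bp at chr1:275908644-275910291 (rn6), had 0, 42, 24 and 38 reads in control and 102, 0, 21 and 0 in irradiated libraries. Both were thus present in both groups. The promoters of these 2 genes, from 250 bases before to 50 after the start, are shown because circles next to them were in more of the 8 libraries than other upstream circles, of which 7 were in 4 libraries. They are taken from RefSeq on build GRCr8, at chr1:129748322-129748621 on the plus strand and chr1:264175862-264176161 on the minus strand, with CpG sites (the letters CG) in capitals. The builds differ, so the circle was not placed on the sequence.
Cers3: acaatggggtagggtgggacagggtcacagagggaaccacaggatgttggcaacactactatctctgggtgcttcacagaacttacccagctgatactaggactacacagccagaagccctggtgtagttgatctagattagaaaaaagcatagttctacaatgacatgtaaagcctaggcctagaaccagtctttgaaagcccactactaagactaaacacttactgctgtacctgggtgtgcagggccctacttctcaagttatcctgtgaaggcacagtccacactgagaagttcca
Gpam: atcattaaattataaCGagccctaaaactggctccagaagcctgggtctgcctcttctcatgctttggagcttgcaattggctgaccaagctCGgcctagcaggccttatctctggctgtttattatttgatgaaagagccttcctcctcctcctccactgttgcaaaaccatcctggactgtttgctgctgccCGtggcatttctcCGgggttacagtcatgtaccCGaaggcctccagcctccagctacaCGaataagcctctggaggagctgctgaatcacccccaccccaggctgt
The Cers3 promoter holds 0 CpG sites and is 47.7% GC, whereas the Gpam promoter holds 6 and is 52.7% GC. Over all 33469 promoters of the table the median was 7 sites and 51.7% GC, and 94.5% held at least 1.

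Circles were spread over the chromosomes in slightly different proportions. The share on chromosome 12 was 3.63%, 3.57%, 2.96% and 4.75% in control replicates 1 to 4 and 1.99%, 1.86%, 1.90% and 2.26% in 5 Gy x2 replicates 1 to 4, 0.537-fold the control mean. Chromosomes 19 (0.828-fold) and 20 (0.811-fold) were also lower in every irradiated library, and chromosomes 4 (1.14-fold) and 11 (1.18-fold) higher. These 5 of 22 chromosomes, 22.7%, had groups that did not overlap (9.09% higher and 13.6% lower, exact p = 0.0286), and their adjusted p was 0.126 over the 22, so none passed 0.05. Among circles of 330 to under 420 bp alone 2 chromosomes had such groups, and 2 without that class.

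Circles near chromosome ends were fewer in proportion after irradiation. The last 10 Mb of chromosomes held 11.7%, 12.3%, 11.1% and 16.6% of the circles of control replicates 1 to 4 and 8.40%, 8.53%, 7.90% and 9.85% of those of 5 Gy x2 replicates 1 to 4. The first 10 Mb held 8.44% ± 0.744 and 7.24% ± 0.285 (SD, n = 4). In both the groups did not overlap (exact permutation p = 0.0286, adjusted p = 0.0881).

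In windows of 10 Mb, circles shifted between regions. Of 286 windows, edgeR's quasi-likelihood test called 72 (25.2%) at a Benjamini-Hochberg adjusted p of 0.05, 28 (9.79%) higher and 44 (15.4%) lower in 5 Gy x2 relative to the other windows. The share of circles did not overlap between groups in 61 windows (21.3%), 16 of them called higher and 28 called lower. Windows called higher held a median of 25 genes with a circle in any library, those called lower 62.5, and all windows tested 46. All 6 windows of chromosome 12 were called lower. With library size alone as the scale the split was 45 higher and 39 lower. Among circles of 330 to under 420 bp alone, 1 of 284 windows was called, and among all other circles 32 of 279.

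The window on chromosome 14 from 50000001 to 60000000 had the largest increase. It held 0.626, 1.59, 2.12 and 0.556 of every 1000 circles of control replicates 1 to 4 and 3.26, 3.06, 3.43 and 2.85 of 5 Gy x2 replicates 1 to 4, a log2 fold change of 1.04 (SE 0.25, adjusted p = 0.000518). Next came a window on chromosome 5 from 80000001, which holds Astn2, at 1.62 ± 0.688 against 3.55 ± 0.715 per 1000 circles (SD, n = 4, edgeR log2 fold change 0.98). The window on chromosome 1 from 110000001, which holds Luzp2, had 0 to 13 circles in control and 16 to 67 in irradiated libraries (0.92). Only 6 to 21 genes had a circle in each of the 6 named windows that rose. Control replicate 4 was the lowest library in each of them. With single libraries left out, their log2 fold changes lay between 0.74 and 1.42.

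The steepest falls were on chromosome 12. In the window from 50000001, control replicates 1 to 4 had 2.92, 3.92, 2.98 and 4.72 per 1000 circles and 5 Gy x2 replicates 1 to 4 had 2.05, 1.56, 1.42 and 1.58 (edgeR log2 fold change −1.17, SE 0.23, adjusted p = 1.07e-05). From 40000001 to 50000000 the means were 9.65 ± 3.43 and 4.39 ± 0.742 (−1.13). Windows on chromosome 9 from 10000001 (−1.09), chromosome 8 from 120000001 (−1.07), chromosome 3 from 160000001 (−1.07) and chromosome 12 from 20000001 (−1.06) completed the named falls. Control replicate 4 was the highest library in each of these 6 windows, and without it the log2 fold changes of the named falls lay between −1.08 and −0.87.

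**Figure D3:**
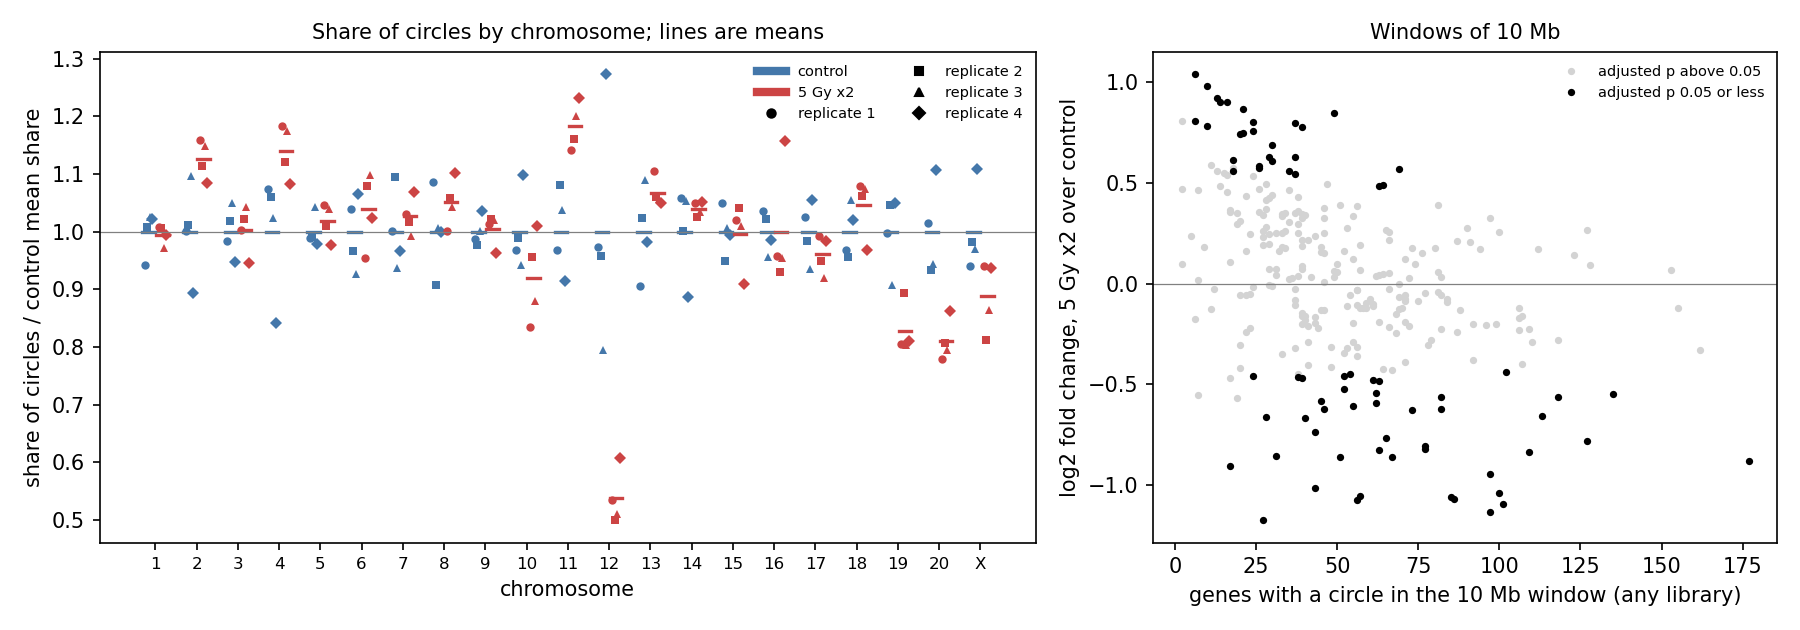
Left, share of circles on each chromosome except Y divided by the control mean, 1 symbol per control (blue) or 5 Gy x2 (red) library, lines for means. Right, log2 fold change of each 10 Mb window (vertical axis) against the number of genes with a circle there (horizontal axis), with called windows in black. Chromosome 12 lies at 0.537 of the control mean, and windows called lower have a median of 62.5 genes against 25 for those called higher.

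Few genes had enough circles to test. Of 14890 genes with a circle in any of the 12 libraries, 15 passed the filter, and edgeR called 6 of these (40%), 2 higher (13.3%) and 4 lower (26.7%) in 5 Gy x2 relative to the other tested genes. The filter keeps a gene by its circles, scaled to library size, in enough libraries of any group, so the calls are partly set by it. Luzp2, with 0 to 2 circles in control libraries, and Pard3b, with 1 to 4, passed through irradiated libraries alone. Among the 8 libraries, the 4 genes called lower met the filter's limit mainly in control libraries. No gene was called by DESeq2 (0 of 15), edgeR without a filter called 0 of 14890, and 7 of the 15 had an unadjusted edgeR p under 0.05. Calls also hung on single libraries: none of 19 passed without control replicate 4, 3 of 18 without 5 Gy x2 replicate 3, 12 of 22 without control replicate 1 and 15 of 25 without 5 Gy x2 replicate 4.

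Luzp2 and Pard3b passed the filter through irradiated libraries alone, so their adjusted p-values below are no separate support for an increase. Luzp2, a gene for a leucine zipper protein known from brain, was the only one of the 6 called genes whose circle numbers did not overlap. It had 1, 1, 2 and 0 circles in control replicates 1 to 4 and 12, 18, 10 and 4 in 5 Gy x2 replicates 1 to 4, spread over chr1:111854059-113527175 (rn6). Its edgeR log2 fold change was 1.97 (SE 0.61, adjusted p = 0.00881), which without control replicate 4 became 1.80 (adjusted p = 0.0540) and without control replicate 1 became 3.12. Pard3b, of a family of cell polarity proteins, had 2, 1, 4 and 1 circles in control and 16, 18, 17 and 3 in irradiated libraries. Per 1000 circles these came to 0.106 to 0.417 and 0.474 to 0.842, with no overlap, and the log2 fold change was 1.28 (SE 0.52, adjusted p = 0.0458). The edgeR call of Pard3b was lost without control replicate 2 (1.40, adjusted p = 0.0524) or 4 (1.30, adjusted p = 0.0767). Its log2 fold change was 2.47 without control replicate 1, 2.01 without control replicate 3, 1.98 without 5 Gy x2 replicate 3 and 2.02 without 5 Gy x2 replicate 4.

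The 4 genes called lower had similar numbers of circles in both groups, on a larger total after irradiation. Apoo, a subunit of the complex that shapes mitochondrial inner membranes, had 5, 20, 21 and 19 circles in control and 6, 12, 15 and 17 in 5 Gy x2 libraries (edgeR log2 fold change −1.70, adjusted p = 0.00450). Ighm, the constant region of the mu heavy chain, had 3, 10, 7 and 7 against 1, 10, 6 and 7 (−1.58, adjusted p = 0.00450). It lies in a locus of many similar segments, so the assignment of its circles is uncertain. Rbms3, an RNA-binding protein, had 2, 14, 9 and 6 against 6, 15, 11 and 2 (−1.31, adjusted p = 0.00881). Galnt17, of a family of glycosyltransferases, had 3, 7, 7 and 2 against 2, 6, 10 and 3 (−1.27, adjusted p = 0.0167). Per 1000 circles only Galnt17 of these 4 had groups that did not overlap, 0.649 ± 0.0783 against 0.288 ± 0.164 (SD, n = 4).

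These 4 lower calls depended on single libraries, and the genes tested changed with each library left out. Apoo was not called without control replicate 4 (log2 fold change −1.39) or without 5 Gy x2 replicate 1 (−0.87), 2 (−0.85) or 3 (−0.85), and without control replicate 1 it was called at −0.91. Ighm was called without control replicate 3 (−1.41) or 5 Gy x2 replicate 4 (−1.27). It was not called without control replicate 1 (−0.65), 2 (−0.998) or 4 (−1.32), or without 5 Gy x2 replicate 1 (−0.59), 2 (−1.15) or 3 (−0.72). Rbms3 was called without control replicate 3 (−1.06). It was not called without control replicate 1 (−0.45), 2 (−0.52) or 4 (−1.17), or without 5 Gy x2 replicate 1 (−0.54), 2 (−0.95), 3 (−0.61) or 4 (−0.56). Galnt17 lost its call whichever of the 8 libraries was left out. Its log2 fold changes were then −0.24, −0.70, −0.87 and −1.29 without control replicates 1 to 4 and −0.38, −0.59, −0.93 and −0.68 without 5 Gy x2 replicates 1 to 4.

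Other genes with many circles or low p-values were not called. Mycbp2, a ubiquitin ligase, had 11, 20, 25 and 3 circles in control and 47, 63, 64 and 17 in irradiated libraries. Per 1000 circles these came to 1.91 ± 0.730 and 2.42 ± 0.212. The circles counted for Mycbp2 reached over chr15:87507985-93807934 (rn6), and whether all of them lie in this gene was not tested. The synaptic adhesion gene Nrxn3 had 2, 2, 4 and 2 against 9, 20, 23 and 2, and the cadherin Cdh13 4, 5, 5 and 1 against 11, 20, 14 and 3. Dystrophin, Dmd, had 2, 6, 3 and 5 against 11, 15, 13 and 5. Camta1, a calmodulin-binding transcription activator, had 4, 6, 7 and 3 against 7, 17, 8 and 4, and St6galnac3, a sialyltransferase, 2, 7, 10 and 3 against 6, 8, 11 and 8. Astn2, an astrotactin of neuronal migration, had 1, 1, 4 and 0 against 10, 13, 9 and 2, and the gene with no symbol ENSRNOG00000006617 had 3, 5, 5 and 1 against 14, 14, 23 and 1. None of these 8 was called by edgeR (adjusted p of 0.106 to 0.978).

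Gene lists were described by the circles that fell in exons or introns of their members, per 1000 circles of a library. All genes together held 372 ± 5.76 in control and 365 ± 11.3 in 5 Gy x2 libraries (SD, n = 4). In the list of 25 genes called long neuronal genes here, 16 had a circle in any of the 12 libraries. The list had 2.92, 2.75, 3.18 and 0.833 in control replicates 1 to 4 and 4.58, 5.56, 4.70 and 6.01 in 5 Gy x2 replicates 1 to 4, with no overlap. Of its members 4 passed the gene filter, and 1, Luzp2, was called. That list was chosen with earlier results of these libraries known, Luzp2 included.

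The 30 symbols of the epidermal keratinocyte list, which names loricrin as both Lor and Loricrin, lay the other way. Genes of the list with a circle in any of the 12 libraries numbered 22. They had 0.834, 1.16, 1.06 and 1.39 circles per 1000 in control replicates 1 to 4 and 0.316, 0.730, 0.401 and 0.632 in 5 Gy x2 replicates 1 to 4, again with no overlap. The counts behind these values were 4, 11, 11 and 5 circles in control and 6, 21, 11 and 4 in irradiated libraries. The basal keratins Krt14 and Krt5 were among the members with the most circles: Krt14 had 0, 2, 2 and 2 circles against 0, 3, 0 and 1, and Krt5 0, 3, 1 and 2 against 1, 0, 1 and 0. A circle was counted for every gene it is annotated to, so 1 long circle can count for several genes. The circles counted for Krt14 reached over chr10:88074744-88116240 (rn6) and those for Krt5 over chr7:143322168-143452547 (rn6). Lor, which encodes loricrin of the cornified envelope, had 2, 2, 1 and 1 against 0, 0, 1 and 1. Dsg1, a desmosomal cadherin, lay the other way, with 0, 0, 1 and 0 against 1, 2, 1 and 0. The 10 Mb windows with Krt5, Krt14, Lor and Dsg1 had log2 fold changes of −0.94 (called lower), −0.33, −0.24 and 0.02 (not called). Whether the list differed beyond the windows it lies in was not tested. None of the list passed the gene filter, so no member was tested.

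The other 7 lists overlapped between groups. DNA damage and p53 response genes had 0.249 ± 0.0588 circles per 1000 in control and 0.234 ± 0.0655 in 5 Gy x2 libraries (SD, n = 4), and 0 of them passed the filter. Tp53bp1, a protein of double-strand break repair, had the most circles of the list, 1, 2, 1 and 0 in control and 1, 0, 2 and 0 in irradiated libraries. The kinase gene Atm had 0, 0, 1 and 0 against 1, 2, 0 and 0. Atr, a kinase that signals stalled forks, had 0 circles in each control library and 1 in each irradiated library, and Mdm2, the ligase that restrains p53, had 0 in control and 0, 2, 1 and 0 in irradiated libraries. Such counts lie at the floor, on 25632 circles in control and 79722 in 5 Gy x2. How many of all genes separate in this way was not tested. Genes of end joining, mismatch and other repair had 1.18 ± 0.387 against 0.927 ± 0.169 per 1000. Among them Prkdc, the catalytic subunit of the DNA-dependent kinase, had 0, 0, 3 and 0 against 1, 5, 4 and 3 circles, and Msh3, a mismatch repair protein, 0, 3, 3 and 1 against 5, 4, 2 and 0. Extracellular matrix and fibrosis genes had 0.725 ± 0.227 against 0.624 ± 0.145, hair follicle and sebaceous gland genes 0.420 ± 0.159 against 0.542 ± 0.243, and inflammation genes 0.371 ± 0.198 against 0.293 ± 0.108. For endothelium and pericyte genes the values were 0.282 ± 0.260 and 0.249 ± 0.116, and for skeletal muscle genes 1.11 ± 0.943 and 0.755 ± 0.0736, where control replicate 4 stood at 2.50.

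As a share of the listed genes with a circle in any of the 12 libraries, more genes were reached by circles after irradiation. That held for 35.4% of all genes in control and 67.1% in 5 Gy x2, for 40% and 84% of repair genes, and for 33.3% and 75% of DNA damage genes. Keratinocyte genes were reached at 59.1% and 77.3%, and inflammation genes at 23.1% and 61.5%. The number of circles, 25632 and 79722, moved with these shares, and its part in them was not tested.

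**Figure D4:**
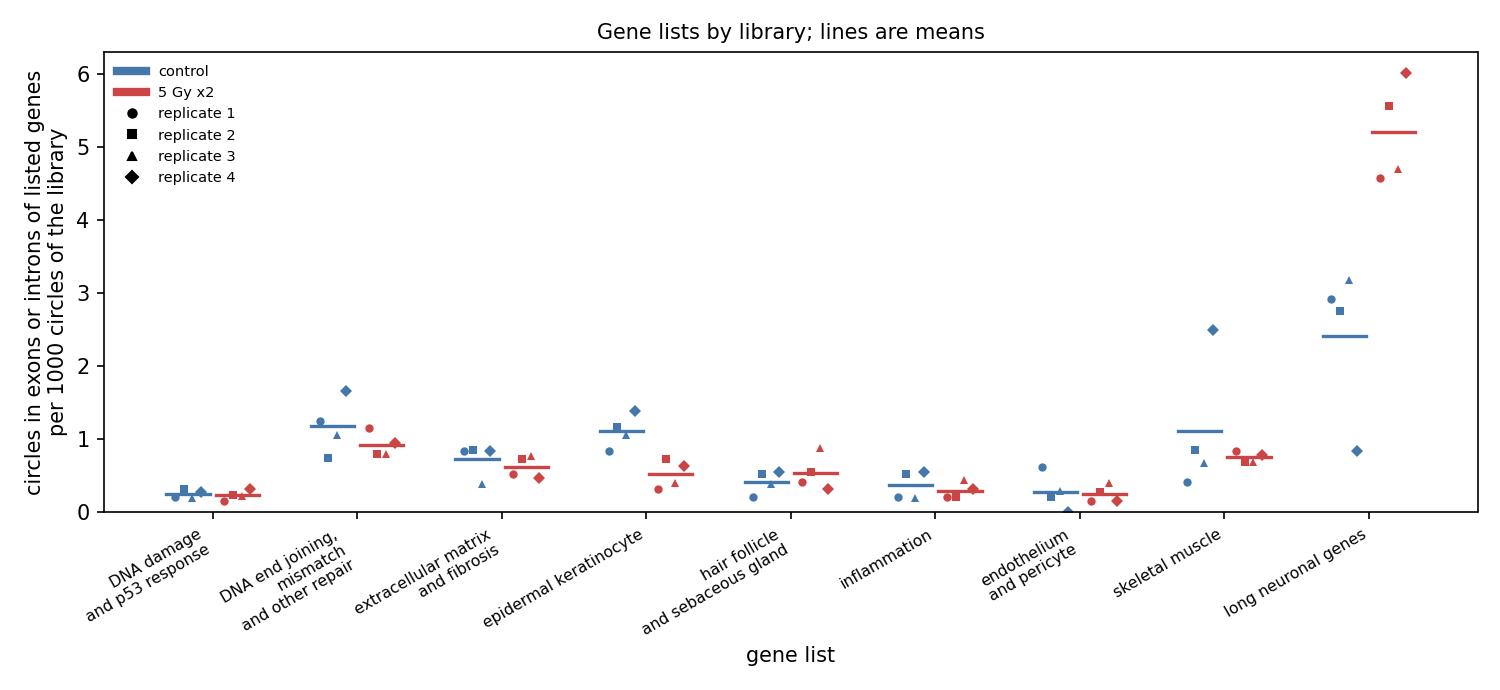
Circles in exons or introns of listed genes per 1000 circles of the library (vertical axis) for 9 gene lists, 1 symbol per control (blue) or 5 Gy x2 (red) library, lines for means. The long neuronal list (2.42 against 5.21 on average) and the epidermal keratinocyte list (1.11 against 0.520) have groups that do not overlap.

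Most circles were seen in a single library. Of the circles in the 8 libraries, 98692 (95.9%) were present in 1 only and 21 in all 8. The 2492 circles found in both groups were 9.72% of control circles and 3.13% of irradiated circles. Between pairs of libraries, 5.61% to 21.6% of a control library's circles overlapped a circle of another control library by at least 50% of both lengths, and 4.24% to 13.7% overlapped one of an irradiated library. Of an irradiated library's circles, 1.15% to 5.99% were found in another irradiated library and 1.25% to 6.86% in a control library. Irradiated libraries thus shared about as many of their circles with control libraries (median 2.10%) as with each other (median 2.01%), which was not tested.

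More circles recurred within the control group than within the 5 Gy x2 group, a difference that was not tested. There were 134 circles in 3 or 4 control libraries and no 5 Gy x2 library, against 23 in 3 or 4 5 Gy x2 libraries and no control library. Of the 134, 66 (49.3%) were also present in 5 Gy x4 libraries, and of the 23, 16 (69.6%). A further 115 circles were in 3 or 4 libraries of both groups, and 111 of them (96.5%) were also in 5 Gy x4 libraries. These recurrent circles were long, with medians of 416, 402 and 830 bp, and the 330 to under 420 bp class made up 21.6%, 21.7% and 5.22% of them.

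**Figure D5:**
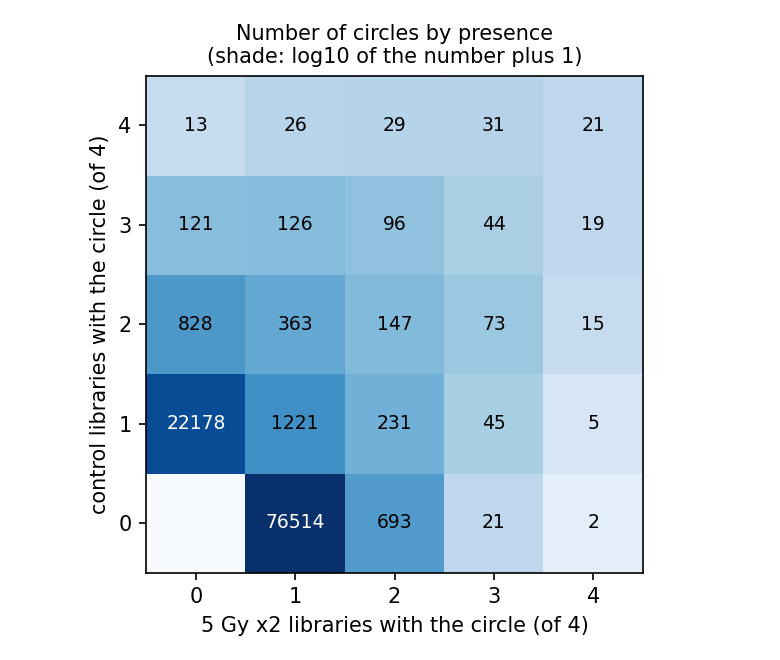
Number of circles by the number of control libraries (vertical axis) and 5 Gy x2 libraries (horizontal axis) that hold them, shaded by log10 of the number plus 1. The 13 circles in 4 control and 0 irradiated libraries and the 2 in the opposite corner are the extremes, and 21 circles are in all 8.

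Circles found in every library of 1 group and none of the other numbered 13 for control and 2 for 5 Gy x2. The best supported control circle was intronic in Arhgef7, a guanine nucleotide exchange factor, at chr16:83053398-83056187, with 132, 85, 105 and 245 supporting reads in control replicates 1 to 4. It was also in 3 of the 4 5 Gy x4 libraries. Others lay in introns of Irs2, an adaptor of insulin signalling (10, 24, 40 and 90 reads), Cnksr3 (16, 13, 12 and 35) and Pdss2, an enzyme of coenzyme Q synthesis (18, 26, 23 and 28). The irradiated ones were an intergenic circle at chr1:182406710-182407798 with 62, 12, 45 and 84 reads in 5 Gy x2 replicates 1 to 4, and an intronic circle of Asph at chr5:22583109-22583753 with 141, 1, 15 and 14.

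Supporting reads of single circles did not differ by edgeR in any of 733 circles tested (0%; 61 had an unadjusted p under 0.05, 20 higher and 41 lower, and the smallest adjusted p was 0.317). DESeq2 called 5. These were the Arhgef7 circle, the intergenic circles at chr1:148635951-148637828, chr12:9535637-9548350 and chr1:265284849-265286763, all with 0 reads in the 5 Gy x2 libraries, and the circle at chr1:182406710-182407798, with 0 in control. They were named after their values were seen, and the circle at chr1:265284849-265286763 had reads in only 1 control library.

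None of the 21 circles in all 8 libraries was among the edgeR or DESeq2 calls. The mitochondrial genome, itself a circle and listed from base 1 to 16311, had 2288, 889, 1204 and 525 supporting reads in control replicates 1 to 4 and 4173, 8149, 3634 and 1968 in 5 Gy x2 replicates 1 to 4 (exact permutation p = 0.0571 on reads, adjusted p = 0.136). Control replicate 1 exceeded 5 Gy x2 replicate 4, so the groups overlapped. That test took reads unscaled, on library totals that ran from 34499 to 397674. Relative to these totals, control replicate 1 lay above every irradiated library except replicate 2. By edgeR, which scales by library, the log2 fold change was 2.36 (SE 1.45, adjusted p = 0.9995). Reads of the other circles in all 8 libraries are likewise given unscaled. An intergenic circle of 1107 bp at chr1:180782889-180783995 had 478, 686, 1849 and 446 against 1110, 195, 392 and 527 reads. Relative to library totals, its reads in 5 Gy x2 replicates 1 to 3 lay below every control library, and replicate 4 lay within the control range. Its edgeR log2 fold change was −0.18 (SE 1.82, adjusted p = 0.9995). A 61 bp circle at chr18:4696251-4696311 had 568, 227, 273 and 155 against 192, 254, 377 and 103, and a 385 bp circle at chr3:32684-33068 had 604, 229, 193 and 34 against 109, 486, 230 and 262. One of 35286 bp at chr13:33728178-33763463 had 85, 162, 655 and 204 against 145, 24, 114 and 165.

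Of the 21, 8 were intronic. Among the 10 best supported, that of Tm6sf1 (1930 bp) had 148, 150, 215 and 16 against 364, 42, 150 and 55 reads, and that of Lrrc8c (423 bp), a subunit of volume-regulated anion channels, 46, 202, 280 and 10 against 442, 10, 31 and 14. Mipep, a mitochondrial peptidase, had 196, 60, 80 and 105 against 64, 40, 120 and 12 on a circle of 2560 bp. A pair of intergenic circles, of 2412 bp at chr10:67234383-67236794 and 888 bp at chr7:142066301-142067188, had 30 to 150 and 23 to 196 reads. Of the DNA repair list, an intronic circle of Fanca, of the Fanconi anaemia repair complex (chr19:56087848-56088581), was in 4 control libraries and in 2 irradiated ones (23, 46, 62 and 66 against 63, 0, 0 and 21).

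The circles that 5 Gy x2 libraries had in excess were largely not found in 5 Gy x4 skin, where few circles recurred. Of a 5 Gy x4 library's own circles, only 2.98% to 5.01% were in 2 or more 5 Gy x4 libraries. Low sharing is thus no trait of the 5 Gy x2 circles alone. Circles that were also present in any 5 Gy x4 library numbered 836, 1182, 1234 and 843 in control replicates 1 to 4 and 1241, 1306, 1353 and 684 in 5 Gy x2 replicates 1 to 4 (exact permutation p = 0.571). As a share these were 17.4%, 12.5%, 11.9% and 23.4% against 6.53%, 4.54%, 4.93% and 10.8%, and the groups did not overlap (exact p = 0.0286, adjusted p = 0.0881). Circles in no 5 Gy x4 library were 6034 ± 3149 against 19237 ± 10024 (SD, n = 4), 3.19-fold, with overlapping groups (exact p = 0.0857). Circles in 2 or more 5 Gy x4 libraries numbered 391 ± 46.7 in control and 329 ± 42.6 in irradiated libraries (exact p = 0.143).

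The longest eccDNA with at least 5 supporting reads were near 100 kb and partly the same in both groups. The longest, of 98697 bp and overlapping exons of the choline transporter-like gene Slc44a5 at chr2:260463593-260562289, had 0, 52, 72 and 0 reads in control and 0, 55, 116 and 20 in irradiated libraries. The next 2 were also shared: 95613 bp at chr1:180492088-180587700 (1520 reads in control replicate 3, 22 in 5 Gy x2 replicate 2) and 94302 bp at chr13:33496627-33590928 (598, 560 and 304 reads in control replicates 2 to 4, 220 in 5 Gy x2 replicate 3). The other 2 of each group were in 1 library each: circles of 94200 and 82359 bp in control, and of 90948 bp at Lrrc38 and 89526 bp in 5 Gy x2. Circles that the tables list apart as ecDNA numbered 26, 42, 49 and 33 in control and 40, 50, 18 and 18 in irradiated libraries (exact p = 0.571).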

How the data were processed

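Per the labels' protocols, circular DNA was enriched from skin with a plasmid column kit, bead-purified after exonuclease digestion of linear DNA, and 50 ng went into each transposase library. The submitters' processing notes name BWA, Picard, bedtools and build rn6. For the circle caller, its settings and the merging of circles across libraries, the sources used here give nothing. The deposited library tables hold counts, whole numbers of supporting reads per circle with no normalization. The deposited annotation tables add position, length, gene, label and, per call, split reads, read pairs, circle score, mean coverage and continuity. Starts are counted from 1 here. In 203 entries the library counts sum to less than the table's total, 1 entry with damaged lists was dropped from the per-call measures and 3 were restored from the counts. Of the columns with values per sample, 0 were left unmapped.

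Library measures were tested by exact two-sided permutation of the 8 libraries over 70 splits (smallest p 0.0286), with Benjamini-Hochberg adjustment over 12 planned measures, 74 added after seeing the data and 22 chromosomes. Genes, windows of 10 Mb and single circles were tested with edgeR 4.0.16 (TMM, filterByExpr, quasi-likelihood, adjusted p of 0.05) in 1 fit of 12 libraries, tested on simulated data. DESeq2 1.42.0 was an alternative. Python 3.11.15, scipy 1.17.1, R 4.3.3 and bedtools 2.31.1 were used. Named genes were those past the threshold with groups apart (since fewer than 5 were, the 10 with the lowest p), the 10 with the most circles, and up to 4 per list with the most circles. Named windows were those past the threshold with groups apart, up to 6 each way, and named circles the 10 in most libraries, any past the threshold and the 5 longest of each group. Circles found in 1 group alone and those in listed genes were named after their values were seen. Members and lists were chosen with earlier results of these data known. GC content and direct repeats at circle ends were not run, because no rn6 genome was used here. Results on 1 withheld item are not reported here.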

Additional observations from a re-analysis of the deposited data

Results flagged for a closer look

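The 12 planned and 74 added measures, many of them related to each other, were looked at in both groups of 4 libraries. In 14 measures 1 library was set apart from the other 3, by a gap above Dixon's 95% critical share of the group's range. Chance sets apart about 1 in 20 groups. Control replicate 4 was the library in 7 of these measures: its exonic share was 2.36%, its exonic share of circles of 250 to under 330 bp 0.609%, its share of circles labelled hconf 47.1% and its share of calls with split reads only 65.3%. A read pair backed 32.3% of its calls of 330 to under 420 bp, whose median mean coverage was 36.2. The first 10 Mb of chromosomes held 9.55% of its circles, also apart. Control replicate 1 was apart with a read pair in 51.8% of its calls of 1000 bp or more, and with 41.2% of its supporting reads on circles in 2 or more 5 Gy x4 libraries.

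Among irradiated libraries, replicate 4 was apart at 60.5% of circles of 330 to under 420 bp and at 684 circles also in 5 Gy x4. Replicate 2 was apart at 30.3% of circles labelled conf and at a median continuity value of 0.176. Replicate 1 was apart at an exonic share of 4.24% among circles of 330 to under 420 bp.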

How the results depend on the processing

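In every setting tried the number of eccDNA stayed higher in 5 Gy x2, at 2.48 to 3.55-fold when single libraries were left out. Control and 5 Gy x2 libraries share replicate numbers. The deviations of same-numbered libraries over windows correlated at 0.03, −0.03, 0.30 and 0.41, and those of differently numbered ones at −0.40 to 0.26. The values 0.30 and 0.41 exceeded all of the latter, so this check does not exclude pairing. The numbers were not taken to pair samples in the main tests. With the replicate block, an exact test over sign changes of 4 pairs (smallest p 0.125), the differences of 27.0 bp in median length, 34.2 points in the 330 to under 420 bp share, 1.12 in the exonic, −1.88 in the intronic and 21.6 in the split-read share had p = 0.125; the blocked edgeR fit called 6 genes, 69 windows and 0 circles. With a minimum of 5 reads the difference in median length was 17.1 bp (exact p = 0.400), and with a minimum of 2 the intronic difference was −1.95. At a common length mix the exonic, intronic and downstream differences were 0.799, −1.20 and −0.0111 points, the last reversed. The number of circles of 1000 bp or more reversed with a minimum of 2 reads, at −10.0.

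Leaving out single libraries gave 17.1 to 31.8 bp in median length, 28.9 to 38.4 points in the 330 to under 420 bp share, 0.771 to 1.35 exonic, −2.27 to −1.44 intronic, −0.289 to −0.134 upstream, −0.0138 to 0.0892 downstream, −3.32 to 8.49 in circles with 1 read, 18.8 to 24.1 in the split-read share, −49.5 to 71.5 in the median score and −19.2 to −4.58 in coverage. Other ranges that crossed 0 were −70.9 to 96.4 for circles of 1000 bp or more, −0.184 to 0.0597 for the upstream share of circles of 330 to under 420 bp, −0.310 to 0.349 of 1000 bp or more, −3.92 to 0.750 for median supporting reads, −0.0542 to 1.07 for calls with a read pair under 150 bp, −6.87 to 1.17 of 250 to under 330 bp, −12.6 to 1.68 for median coverage of calls under 150 bp, −11.0 to 4.50 of 150 to under 250 bp, −10.9 to 0.392 of 330 to under 420 bp, and −40.4 to 1.74 of 1000 bp or more. Gene calls ran from 0 to 15, window calls from 56 to 76 and circle calls from 0 to 1. DESeq2 called 0 genes, 70 windows and 5 circles; without a filter 0 genes were called. Of chromosomes, 2 kept groups apart within the 330 to under 420 bp class and 2 outside it, where 1 and 32 windows were called. St6galnac3 reversed without a filter (0.11), as did Camta1 (0.33), and ranged from −0.78 to 0.12 and −0.54 to 0.51 when single libraries were left out. The gene fit on the 8 libraries alone gave no result, because too few genes passed its filter. The gene calls therefore rest on the fit that includes the 5 Gy x4 libraries. GC content and direct repeats were not run. Low counts per gene limit the gene results, and unknown sequencing depth the numbers of circles.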
